A study of Rattus with 6 samples.

Results

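The control H9C2 libraries were the 3 of 6 libraries in the series whose label gives a control plasmid as the genotype. H9C2 is a cell line derived from the heart of an embryonic rat. The other 3 libraries came from the same line given a plasmid for RBM25 overexpression, and their values were used only to see which genes the count table lists. The plasmid backbone, the time after its delivery, the passage number and the culture medium are not stated in the labels. Nor do they say whether the 3 libraries came from separate cultures, so the spread between them may be technical. They describe 1 cell line grown under 1 condition and not heart tissue.

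Muscle cells of the heart, of skeletal muscle and of vessel walls use related but separate genes for the same parts of the contractile machinery. Actin and myosin form the filaments, the troponin complex makes their sliding depend on calcium, and a set of pumps and channels moves calcium in and out of the sarcoplasmic reticulum. H9C2 cells are known as dividing, mononucleated myoblasts that can fuse into myotubes when serum is withdrawn, and they are widely used in place of cardiac muscle cells. Which contractile genes, receptors and channels they transcribe therefore bears on what they can stand in for.

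Levels are given as FPKM, the authors’ fragment counts scaled to gene length and library size, which allows levels of different genes to be set side by side. A gene was called detected at an FPKM of at least 1 in each of the 3 libraries. Of the 20742 genes in the count table, 9984 were detected (48.1%), and 1450 had 0 reads in all 3 control libraries (6.99%). A count of 0 over the 3 libraries allows a level of up to 0.0351 CPM (read counts scaled to library size), which is 3 reads over their summed total and covers counting error only. None of the 20742 genes was at 0 reads in all 6 libraries, so a gene at 0 in the controls has its row through the other 3 libraries. The shares of gene lists given here are over members with a row, and members that matched no row were not analysed here. Of protein-coding genes 58.5% were detected, a closer background for these lists than the 48.1% of all genes. Where many members matched no row, the share detected and the share at 0 reads depend on which genes the table lists. The median of the mean FPKM was 0.89 over all genes, 2.44 over protein-coding genes and 9.14 over detected genes. An FPKM of at least 10 in each library was reached by 4637 genes, of at least 100 by 759 genes and of at least 1000 by 99 genes. Libraries 1, 2 and 3 held 25543849, 28850783 and 30958692 counted reads, and the common biological coefficient of variation between them was 3.39%.

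Transcripts for mitochondrial respiration, the actin cytoskeleton, translation and collagen stood at the top. COX1, a mitochondrial gene for a catalytic subunit of cytochrome c oxidase, had the highest mean level at 9608, 9570 and 9606 FPKM in libraries 1, 2 and 3. Of the 10 genes with the highest mean FPKM, 5 lie on the mitochondrial chromosome: COX1, COX2 and COX3 encode oxidase subunits, and ATP6 and ATP8 encode ATP synthase subunits. The 13 mitochondrial mRNAs together took 4.93 ± 0.0671% of counted reads (SD, n = 3). The first nuclear gene in rank was Actb, cytoplasmic beta-actin, at 7135, 6934 and 6755 FPKM, followed by the actin-binding peptide gene Tmsb10 at 5483, 5776 and 5812 FPKM. Lgals1, a secreted lectin, was at 5278, 5400 and 5257 FPKM.

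In the 9th rank stood Acta2 on chromosome 1, the actin of smooth muscle and of myofibroblasts. Its level was 4961, 4758 and 4676 FPKM, highest in library 1. Among the 25 genes with the highest mean FPKM were also Gapdh of glycolysis, the elongation factor Eef1a1, the ferritin chains Ftl1 and Fth1, the prolyl isomerase Ppia, the thymosin Tmsb4x and the ribosomal protein genes Rpl41, Rps2, Rplp0, Rpl13, Rpl32 and Rps15. All 108 genes with cytosolic ribosomal protein symbols together took 8.47 ± 0.136% of reads. The 21st rank was held by Serpinh1, the chaperone of collagen folding, at 2400, 2456 and 2468 FPKM. Just beyond the first 25, the collagen genes Col1a1 (rank 30) and Col1a2 (rank 34) had means of 2062 ± 113 and 2003 ± 92.1 FPKM (SD, n = 3), and 39 collagen genes together took 2.82 ± 0.126% of reads.

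**Figure D1:**
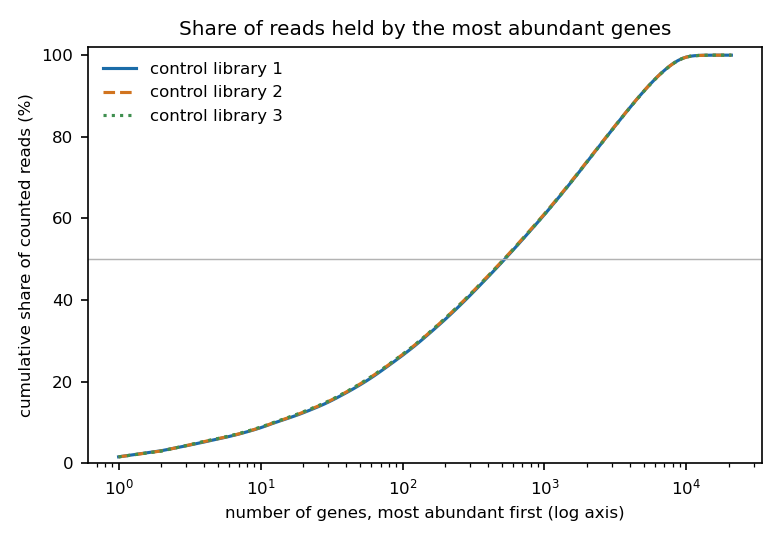
Cumulative share of counted reads (y axis, percent) against the number of genes taken in order of abundance (x axis, log scale) in each of 3 control libraries, with a grey line at 50%. The 3 curves lie on each other, and 525, 517 and 521 genes hold 50% of the reads of libraries 1, 2 and 3.

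The distribution over genes was close to the same in the 3 libraries. The 10 most abundant genes by reads held 8.80 ± 0.0828% of reads, the first 100 held 26.6 ± 0.138% and the first 1000 held 61.0 ± 0.0967% (SD, n = 3). As the curve of cumulative reads shows, 4674 to 4699 genes were needed for 90% of a library. Ranked by FPKM, the first 100 genes held 40.3 ± 0.222% of summed FPKM, a larger share than by reads.

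By the type given in the authors' tables, 16544 genes were protein coding and took 99.2 ± 0.0482% of reads, and 9679 of them were detected (58.5%, against 48.1% of all genes). The 3472 long noncoding RNA genes took 0.491 ± 0.0144% of reads, and 178 were detected (5.13%). H19, an imprinted noncoding RNA that is abundant in fetal muscle and heart, led them at 771, 808 and 835 FPKM. Gas5, a host of small nucleolar RNAs, followed at 281, 302 and 302 FPKM. No other gene of this type had a mean above the 139 FPKM of the uncharacterized LOC100911177.

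The other types reflect a library made from RNA captured by its poly(A) tail and cut to fragments of a chosen size, so they say little of the true amount of short or tailless RNA. Among 259 small nucleolar RNA genes 60 were detected, led by a SNORD22 gene (LOC120100233) at 20.4, 20.4 and 18.5 FPKM. Of 135 small nuclear RNA genes 16 were detected, led by a U1 gene (LOC120093324) at 13.04, 22.5 and 13.1 FPKM from 59, 115 and 72 reads. The leading transfer RNA was the mitochondrial Trnm at 158, 133 and 136 FPKM, and 16 of 167 tRNA genes were detected. Of 38 microRNA genes 3 were detected, Mir3064, Mir762 and Mir214, each with 4 to 8 reads in a library. Short genes turn a few reads into an FPKM above 1, so these calls rest on little. Terc, the RNA of telomerase, had 1, 2 and 1 reads.

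Of the 63 genes typed as miscellaneous RNA 25 were detected. They were led by Hgsnat, an acetyltransferase of lysosomes, at 23.3, 24.7 and 25.1 FPKM, and by Sac3d1 at 23.1, 22.2 and 22.0 FPKM. Both have the name of a protein-coding gene, so this type in the authors' tables does not mean a noncoding gene in the usual sense. Of 21 antigen receptor V segments, 1 was detected, LOC120096967, at 1.43, 1.28 and 1.29 FPKM.

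Genes of the cardiac sarcomere divided sharply. Of 17 genes on that list with a row, 3 were detected (17.6%, against 48.1% of all genes and 58.5% of protein-coding genes). The list's median was 0.0533 FPKM. Tnnc1, the calcium-binding troponin C of heart and slow skeletal muscle, was at 425, 426 and 429 FPKM. Tnnt2, cardiac troponin T, which immature skeletal muscle also makes, was at 72.8, 68.5 and 66.0 FPKM. Myl4, the light chain of atrial and embryonic muscle, was at 4.98, 4.27 and 4.91 FPKM. Tnnt2 was highest in library 1 and differed between libraries beyond counting error by a chi-square test of counts, which the other 2 genes did not pass.

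The remaining 14 sarcomere genes had between 1 and 67 reads over the 3 libraries. Myh7, the slow and ventricular myosin heavy chain, had 1 of 85353324 reads. Tnni3, the cardiac troponin I used as a marker of heart injury, had 4 reads. Myl2, the ventricular regulatory light chain, had 5 reads, and Myl7, its atrial counterpart, had 2. Myh6, the fast cardiac myosin heavy chain, had 25 reads, Ttn, the giant spring protein titin, had 35, and Actc1, cardiac actin, had 67. Thus the thin-filament calcium sensor was abundant while the defining motor proteins of heart muscle were near 0. In bulk RNA, a few cells with such transcripts and a small amount in every cell cannot be told apart.

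Of 13 listed transcription factors of the heart 7 had a row, and 5 were detected. That is 71.4% of those with a row and 38.5% of those listed, against 48.1% of all genes and 58.5% of protein-coding genes. The median over the 7 was 3.65 FPKM. Hand2, which acts in the right ventricle and in other mesenchyme, led at 38.5, 41.2 and 40.1 FPKM. Nkx2-5, an early factor of cardiac progenitors, was at 7.63, 9.69 and 8.44 FPKM and differed between libraries beyond counting error. Tbx18, of the epicardium and sinus node, had a mean of 4.49 ± 0.214 FPKM, Gata6 of 3.65 ± 0.104 FPKM and Gata4 of 3.02 ± 0.236 FPKM (SD, n = 3). Tbx5, Tbx20, Isl1, Hand1, Gata5 and Tcf21 matched no row and were not analysed here.

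Of 9 listed genes linked to cardiac stress 7 had a row and 4 were detected (57.1% of those with a row, near the 58.5% of protein-coding genes). Ankrd1, a titin-associated protein that rises with stretch, was at 544, 516 and 532 FPKM. Ccn2, the matricellular growth factor also called CTGF, was at 548, 491 and 484 FPKM. Nppb, which encodes the natriuretic peptide BNP and is a standard readout of hypertrophy, had 2 reads in all, and Corin, the protease that activates natriuretic peptides, had 3. Nppa matched no row.

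Of the adult fast skeletal muscle genes, 7 of 17 were detected (41.2%, against 58.5% of protein-coding genes), all at low levels. The list's median was 0.183 FPKM. Tnnc2, the fast troponin C, was at 14.4, 12.6 and 12.6 FPKM, and Mylpf, the fast regulatory light chain, was at 13.9, 11.3 and 11.9 FPKM. Acta1, skeletal actin, had a mean of 6.04 ± 0.653 FPKM, Tnni2, fast troponin I, of 5.95 ± 0.535 FPKM, and Tnnt3, fast troponin T, of 4.32 ± 0.192 FPKM (SD, n = 3). Myh1, a fast myosin heavy chain, was at 2.96, 2.73 and 2.67 FPKM, while its neighbours Myh2 and Myh4 had 24 and 32 reads. Ckm, the muscle creatine kinase, had 25 reads.

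Of 22 genes of developing, fusing and slow skeletal muscle 12 were detected (54.5%), a share near the 48.1% of all genes and the 58.5% of protein-coding genes. Their median of 1.59 FPKM was below that of protein-coding genes. Klhl41, a sarcomere-stabilizing Kelch protein, was at 90.9, 83.6 and 86.4 FPKM, and Cav3, the caveolin of striated muscle, was at 68.1, 65.0 and 62.4 FPKM. Cdh15, the M-cadherin of myoblasts and satellite cells, was at 54.3, 60.5 and 61.0 FPKM. Ncam1, an adhesion molecule of myoblasts, had a mean of 47.2 ± 0.823 FPKM, and Sgca, a sarcoglycan of the striated muscle membrane, of 20.0 ± 0.407 FPKM.

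Machinery of the neuromuscular junction and of fusion was present in part. Chrnb1, the beta subunit of the muscle acetylcholine receptor, was at 10.6, 11.1 and 10.7 FPKM, but Chrna1, which carries its main ligand site, had 24 reads over 3 libraries. Musk, the kinase that organizes the synapse, had a mean of 6.94 ± 0.256 FPKM and Mymk, the fusogen myomaker, of 5.57 ± 0.501 FPKM (SD, n = 3). Mymx, its partner, was at 1.00, 1.40 and 0.78 FPKM and so was not detected in library 3. Des, the intermediate filament of muscle, was at 3.99, 4.29 and 3.53 FPKM. The embryonic myosin Myh3 and the neonatal Myh8 had 203 and 17 reads.

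Of 17 listed myogenic regulators 13 had a row and 11 were detected. That is 84.6% of those with a row and 64.7% of those listed, against 58.5% of protein-coding genes. Their median was 7.29 FPKM. Id3, an inhibitor of basic helix-loop-helix factors in dividing cells, led at 116, 115 and 109 FPKM. Myod1, the determination factor of skeletal myoblasts, was at 29.2, 27.9 and 28.9 FPKM, and Myog, the factor of their differentiation, was at 12.9, 13.5 and 14.5 FPKM. Id1, Id2 and the cofactor Eya1 completed the 6 highest together with these, with means of 20.5 ± 1.25, 12.1 ± 1.30 and 8.99 ± 0.746 FPKM. Myf6, a late factor of muscle fibres, had 6 reads, and Myf5, Pax3 and Pax7 matched no row.

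Genes on the smooth muscle list were far more abundant than those on the cardiac sarcomere and skeletal muscle lists. Not every member is particular to smooth muscle, as Acta2 is also an actin of myofibroblasts. Of 16 genes 13 were detected (81.2%, against 58.5% of protein-coding genes), 8 had a mean of at least 100 FPKM, and the median was 79.9 FPKM. After Acta2 came Tagln, the actin-binding SM22, at 1409, 1373 and 1343 FPKM and Myl9, a regulatory light chain, at 727, 719 and 683 FPKM. Actg2, enteric smooth muscle actin, was at 559.8, 522 and 499 FPKM, and the tropomyosin gene Tpm2 at 475, 464 and 445 FPKM. Cnn1, calponin, had a mean of 119 ± 4.80 FPKM, and Lmod1, an actin nucleator, of 27.7 ± 0.943 FPKM.

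Members held to mark fully contractile smooth muscle were low beside these. Myh11, the smooth muscle myosin heavy chain, was at 0.58, 0.55 and 0.37 FPKM. Mylk, the kinase that starts smooth muscle contraction, had 574 reads over the 3 libraries and was not detected. Myocd, the coactivator that drives the smooth muscle programme with SRF, was at 5.47, 4.97 and 4.94 FPKM. Acta1, Acta2, Actc1 and Actg2 encode near-identical proteins, so the split of reads among them is uncertain.

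Fibroblast and mesenchymal genes made up another abundant list, with 23 of 31 detected (74.2%, against 58.5% of protein-coding genes). It had 10 genes with a mean of at least 100 FPKM and a median of 17.1 FPKM. Vim, the intermediate filament of mesenchymal cells, was at 2123, 2115 and 2094 FPKM. Beside the type I collagen chains, Sparc, a collagen-binding matrix protein, was at 1231, 1284 and 1297 FPKM, S100a4 at 656, 677 and 669 FPKM, and the proteoglycan Bgn at 379, 394 and 395 FPKM. Other members were below these: Thy1, a surface antigen of fibroblasts, had a mean of 223 ± 3.24 FPKM and Pdgfrb, a receptor of pericytes and fibroblasts, of 26.3 ± 1.27 FPKM (SD, n = 3).

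Several common fibroblast genes were near 0. Pdgfra, the receptor often used to mark fibroblasts of the heart, had 3 reads in all, against 26.3 FPKM for Pdgfrb. Col6a1 had 29 reads, the N-cadherin gene Cdh2 had 10, and Nt5e, the surface enzyme CD73, had 7. Dcn, Lum and Dpt matched no row.

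**Figure D2:**
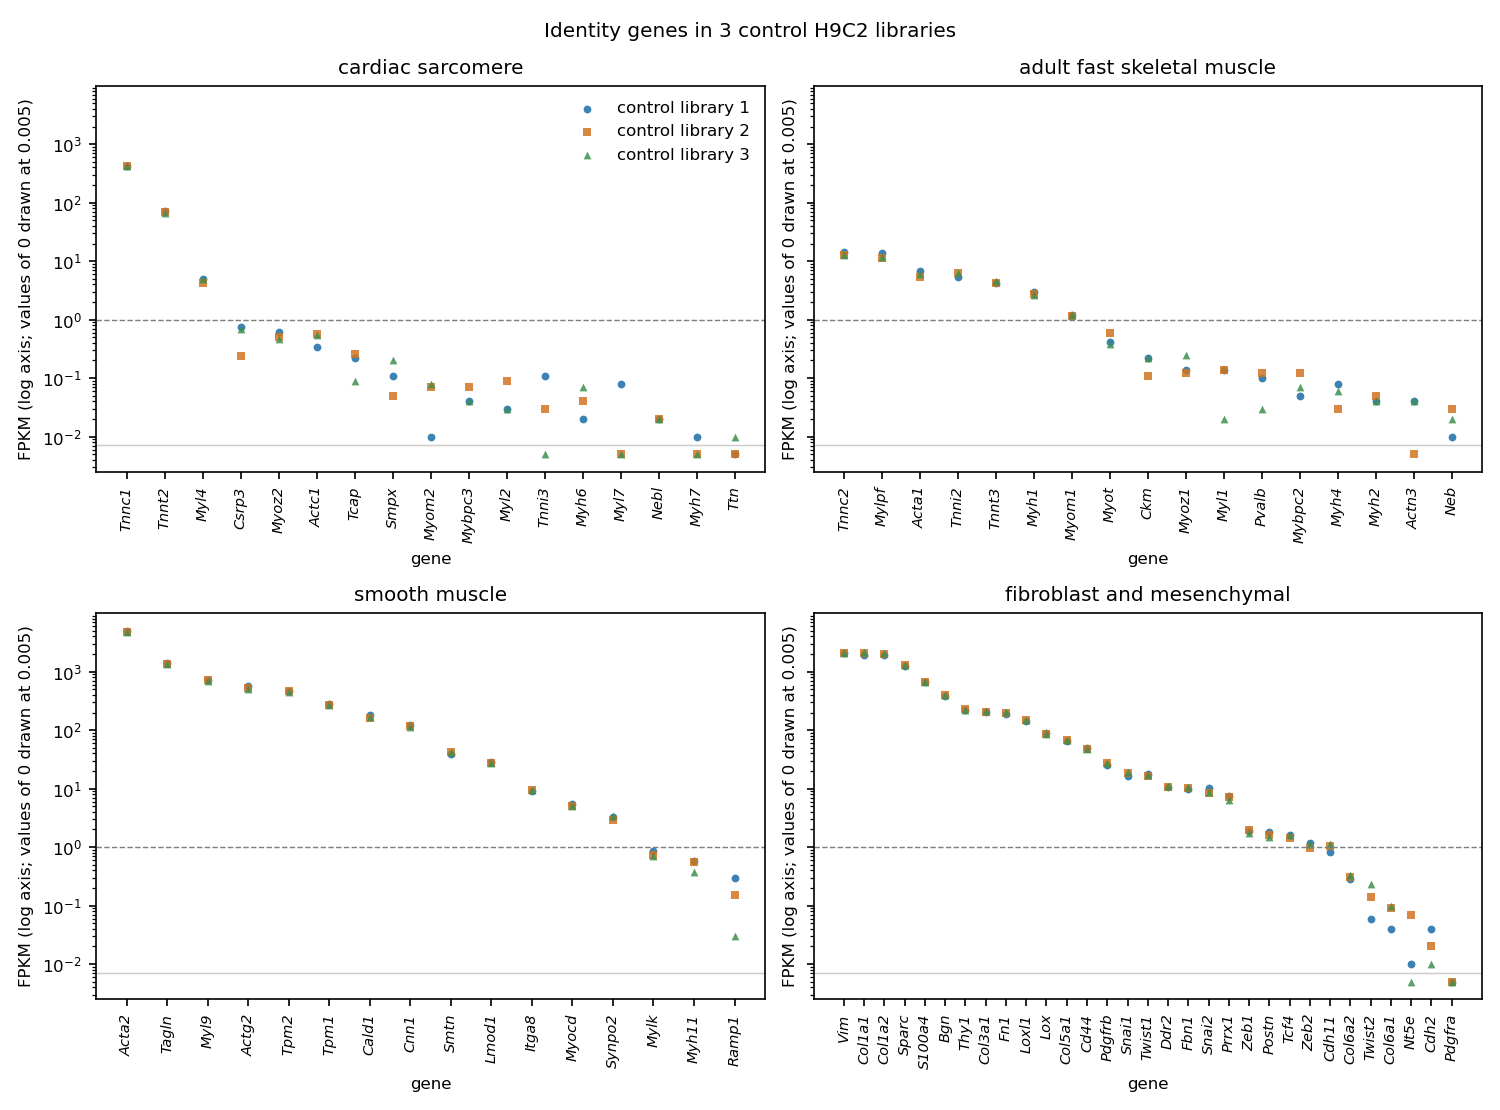
FPKM (y axis, log scale) of each matched gene (x axis) of 4 identity lists, with 1 point for each of 3 control libraries. The dashed line marks an FPKM of 1, and points under the lower grey line are values of 0. Smooth muscle and fibroblast genes reach above 1000 FPKM, while in the cardiac list 14 of 17 genes lie below the dashed line and no fast skeletal gene has a mean above 13.2.

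Lists for 7 other kinds of cell held 63 genes with a row, of which 11 were detected. That is 17.5%, against 48.1% of all genes and 58.5% of protein-coding genes. The median of the 63 was 0.03 FPKM. Krt7, a keratin of simple epithelia, stood out at 356, 345 and 330 FPKM, and Krt8 was at 10.4, 11.9 and 11.1 FPKM. The usual partner of both, Krt18, had 2 reads. The epithelial adhesion genes Cdh1 and Epcam had 1 read each, and Krt19, Cldn4 and Ocln had 0.

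Spp1, osteopontin, a secreted protein of bone and of injured muscle, was at 357, 345 and 348 FPKM, while Alpl, an enzyme of mineralizing cells, had 8 reads. Eng, a TGF-beta coreceptor of endothelium that mesenchymal cells also make, was at 32.8, 34.6 and 33.4 FPKM. The defining endothelial genes Pecam1, Cdh5 and Kdr had 2, 1 and 4 reads. Cd14 was at 17.7, 16.8 and 18.4 FPKM and Cd3e at 3.30, 3.32 and 3.55 FPKM, while the other 7 leukocyte genes had 0 to 29 reads, with Nkg7 at 0. The neuronal list had 1 detected member, the tubulin gene Tubb3 with a mean of 2.55 ± 0.347 FPKM, and Sox10 was at 0 reads. Among 7 adipocyte genes and 5 of hepatocytes or red cells none was detected.

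Isoform choice was read as each gene's share of the summed FPKM of its family, which sets aside how much of the family is made. Heart isoforms led 6 of the 15 families that have one, and 5 of the 6 are described here. Troponin T was 93.3 ± 0.489% Tnnt2 and troponin C was 97.0 ± 0.245% Tnnc1 (SD, n = 3). In calcium storage the heart calsequestrin Casq2 held 94.3 ± 0.374% of its family, and Atp2a2, the SERCA2 pump that refills the store, held 93.0 ± 0.466%. Cacna1c, an L-type calcium channel pore classed here as the heart isoform, held 86.3 ± 2.05%. Tnnc1 and Atp2a2 are also the isoforms of slow skeletal muscle. A splice form of Atp2a2 is made in most cells, which gene-level values cannot separate. Membership of the heart class thus does not mean an isoform made in heart alone, and no tissue was measured here.

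Troponin I did not follow the other troponins. The fast skeletal gene Tnni2 held 93.1 ± 2.15% of its family, Tnni1, the slow and fetal form, 6.15 ± 1.17%, and the heart gene Tnni3 0.770 ± 0.976%. These shares rest on fewer reads, 374 for Tnni2 against 8990 for Tnnt2. A skeletal gene also led the ryanodine receptors, with Ryr1 at 98.2 ± 3.04% from 253 reads and Ryr2, the release channel of heart, at 1 read. Ryr1 stood at only 0.17, 0.18 and 0.19 FPKM, so no ryanodine receptor was detected. The Ryr1 share therefore rests on small values rounded to 2 decimals. Myosin-binding protein C gave no clear leader, since its 3 genes had 20 to 31 reads each.

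In 6 families with a heart isoform, a gene of smooth muscle or of many tissues led. Acta2 held 99.9 ± 0.00878% of the summed FPKM of the alpha-actins Acta2, Acta1 and Actc1. With the smooth muscle gamma-actin Actg2 counted as well, Acta2 held 90.001 ± 0.251%, Actg2 9.88% and Acta1 0.113%. The nonmuscle myosin Myh9, at 259, 259 and 252 FPKM, held 93.6 ± 0.104% of the myosin heavy chains. Myl6 held 99.6 ± 0.0375% of the essential light chains, Myl12a 50.8 ± 0.244% and Myl9 43.5 ± 0.303% of the regulatory light chains, and Actn4 67.0 ± 0.718% of the alpha-actinins. Ldha, the muscle-type lactate dehydrogenase chain found in many tissues, held 73.0 ± 0.355%, with the heart chain Ldhb at the rest.

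**Figure D3:**
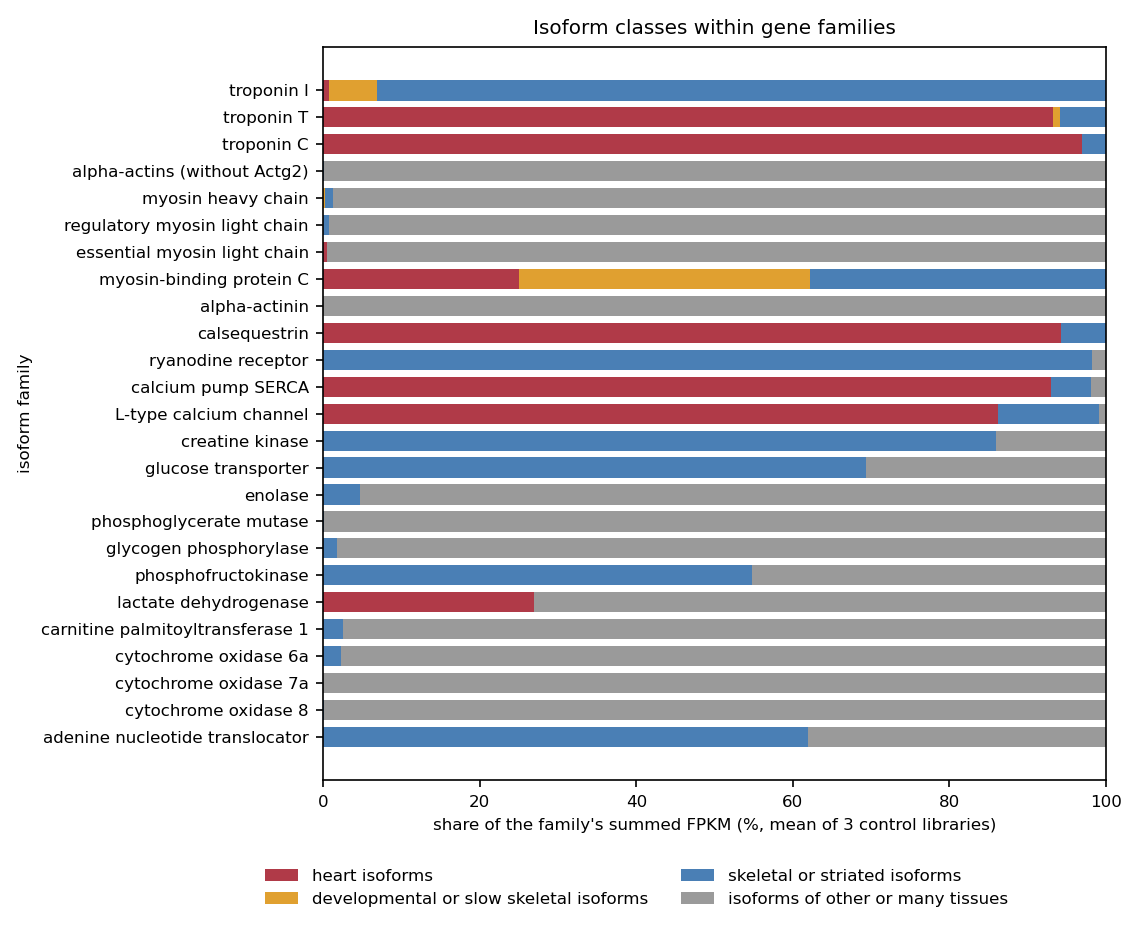
Share of each family's summed FPKM (x axis, percent, mean of 3 control libraries) held by each class of isoform (y axis: family), as stacked bars. Heart isoforms fill most of the bar for troponin T, troponin C, calsequestrin, the SERCA pumps and the L-type calcium channels, and almost none of it for the alpha-actins, the myosins and troponin I.

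Among 11 further families without a heart isoform, a gene of striated muscle led 4. Slc2a4, the insulin-responsive glucose transporter of muscle and fat, was at 7.94, 7.76 and 7.95 FPKM and held 69.4 ± 0.430%, against 30.6% for Slc2a1. Slc25a4, the adenine nucleotide carrier of heart and skeletal muscle, held 62.0 ± 0.201%, and Pfkm, muscle phosphofructokinase, 54.7 ± 1.10%. Ckm held 85.9 ± 5.22% of the cytosolic creatine kinases, but it and Ckb had 25 and 4 reads. In the other 7 the general form led, as with Eno1 at 95.3 ± 0.120% of the enolases and Cox6a1 at 97.8 ± 0.253% of its family. For cytochrome oxidase 7a only Cox7a2 had a row.

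The highest muscle energy genes were those of glycolysis. Of 45 genes 30 were detected (66.7%, against 58.5% of protein-coding genes), with a median of 7.88 FPKM. Eno1, enolase, was at 1049, 1078 and 1066 FPKM, Pgam1, phosphoglycerate mutase, at 972, 944 and 928 FPKM, and Ldha at 799, 795 and 790.2 FPKM. The general cytochrome oxidase genes Cox6a1 and Cox8a were high as well, at 689, 714 and 687 FPKM and at 441, 464 and 449 FPKM. Their muscle forms Cox6a2 and Cox8b had means of 15.7 and 0.463 FPKM. Mb, the oxygen store myoglobin, had 5 reads, Pdk4, the kinase that limits pyruvate oxidation in fasting muscle, had 1, and Ppargc1a, a coactivator of mitochondrial biogenesis, had 8.

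Of 26 genes of calcium storage and uptake 12 were detected (46.2%, against 48.1% of all genes and 58.5% of protein-coding genes). Calr, the storage protein of the endoplasmic reticulum in most cells, was at 1211, 1221 and 1218 FPKM, and Casq2, of the cardiac store, at 125, 123 and 122 FPKM. Atp2a2 was at 49.98, 48.6 and 49.1 FPKM and Jph2, which ties the store to the surface membrane, at 32.5, 33.03 and 31.3 FPKM. Pln, the cardiac brake on SERCA2, had 170 reads and was not detected, and Trdn and Jph1, which anchor release channels, had 2 reads and 1 read. Among release channels, the inositol trisphosphate receptors Itpr3 and Itpr1 were detected at means of 2.81 ± 0.175 and 2.22 ± 0.0723 FPKM, while Ryr2 had 1 read. The junctional genes Jsrp1 and Asph had means of 4.26 ± 0.516 and 3.25 ± 0.0751 FPKM, and the store genes Hrc and Srl had 35 reads each.

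Across 7 lists of receptors, 215 of 269 listed genes had a row and 92 were detected, with a median of 0.483 FPKM. That is 42.8% of those with a row, against 48.1% of all genes and 58.5% of protein-coding genes. None of the 7 matched adrenergic, angiotensin and endothelin receptors was detected. Another 8 on that list, Agtr1a and Ednrb among them, matched no row and were not analysed here. Adra1b, an alpha1 receptor, came closest at 1.07, 0.88 and 1.00 FPKM. Ednra, an endothelin receptor, had 216 reads and a mean of 0.433 FPKM, Agtr1b, an angiotensin II receptor, had 37 reads, and Adrb1, a beta-adrenergic receptor, had 1 read. Receptors of this list, with or without a row, include those through which hypertrophic agonists act on heart muscle cells.

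Among 55 other G protein-coupled receptors 14 were detected (25.5%, against 58.5% of protein-coding genes). Avpr1a, the V1a vasopressin receptor, was the highest at 137, 140.5 and 136 FPKM. F2r, the thrombin receptor PAR1, was at 92.2, 89.7 and 90.6 FPKM, Ackr3, a scavenging chemokine receptor, at 47.2, 44.5 and 46.5 FPKM, and Fzd2, a Wnt receptor, at 41.2, 43.9 and 45.7 FPKM. Smo, the transducer of Hedgehog signals, had a mean of 16.9 ± 0.711 FPKM (SD, n = 3). Avpr2, Hrh1, Lpar5 and Ptgfr, for vasopressin, histamine, lysophosphatidic acid and prostaglandin F, had 0 reads.

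Of 43 receptor tyrosine kinases 18 were detected (41.9%, against 58.5% of protein-coding genes). Ptk7, a pseudokinase of planar polarity, was at 69.2, 68.5 and 70.3 FPKM, Axl, a receptor for Gas6, at 47.9, 46.2 and 44.6 FPKM, and Ryk, Ephb4 and Ddr1 had means of 39.0 ± 1.15, 38.3 ± 0.962 and 31.7 ± 1.16 FPKM. Egfr and Fgfr1, receptors for EGF and FGF in many cells, had 70 and 12 reads. Mertk, a relative of Axl, had 0.

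Cytokine receptors were detected for 18 of 36 genes (near the 48.1% of all genes). Tnfrsf12a, the receptor for TWEAK, was at 184, 182 and 177 FPKM, and Ltbr, Tnfrsf1a and Il6st, for lymphotoxin, TNF and the IL-6 family, had means of 76.4 ± 1.09, 72.0 ± 3.20 and 35.0 ± 0.808 FPKM. Ifngr1, for interferon gamma, had 20.0 ± 0.316 FPKM. Csf2rb and Tlr7 had 0 reads. In the TGF-beta and natriuretic peptide list 11 of 16 were detected (68.8%, against 58.5% of protein-coding genes). Among them were Tgfbr2 at 17.4, 17.0 and 17.9 FPKM and Npr2, the receptor for the peptide CNP, at 10.04, 11.2 and 11.1 FPKM. Npr1, the receptor for ANP and BNP, had 4 reads.

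Nuclear receptors were detected for 19 of 33 genes (57.6%), near the 58.5% of protein-coding genes. Over all 44 listed, 43.2% were detected. Esrra, a regulator of oxidative metabolism, was at 25.2, 24.6 and 25.02 FPKM, and the retinoic acid receptor Rarg and the orphan receptor Nr2f2 had means of 23.0 ± 0.148 and 22.9 ± 0.667 FPKM. Nr3c1, the glucocorticoid receptor, had 3.90 ± 0.170 FPKM. Nr1i2 and Rorb had 0 reads. Of 25 integrins 12 were detected, near the share of all genes, led by Itgb1, the common beta1 chain, at 394, 376 and 384 FPKM. Itgb5, a vitronectin receptor chain, was at 149, 148 and 147 FPKM, and Itga3, Itga7 and Itga5 had means of 95.6 ± 2.12, 53.3 ± 1.81 and 52.6 ± 1.34 FPKM. Itga7 is the laminin receptor chain typical of muscle. Itgb3 and the leukocyte chain Itgad had 0 reads.

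Across 7 lists of channels 150 of 212 listed genes had a row, and the median of the 150 was 0.0467 FPKM. Of them 44 were detected (29.3%, against 48.1% of all genes and 58.5% of protein-coding genes). Of the 150, 16 had 0 reads (10.7%, against 6.99% of all genes), a share that counts only genes with a read elsewhere in the series. Of 12 sodium channel genes 2 were detected, and Scn8a and Scn2b had 0 reads. Of 21 voltage-gated calcium channel genes 5 were detected (23.8%). Cacnb3, an accessory beta subunit, was at 32.8, 35.1 and 34.8 FPKM, while Cacna1c was at 1.55, 1.70 and 1.59 FPKM and the skeletal pore Cacna1s had 135 reads. Cacng7 had 0.

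Potassium and pacemaker channels were detected for 6 of 36 genes (16.7%). Kcnj8 and Abcc9, the pore and the regulatory subunit of a vascular type of ATP-sensitive potassium channel, had means of 7.07 ± 0.483 and 2.40 ± 0.0702 FPKM (SD, n = 3). Kcnj15, an inward rectifier, was at 6.22, 6.15 and 6.41 FPKM, and Hcn2, a pacemaker channel, at 2.19, 2.18 and 2.22 FPKM. Kcnmb4, an accessory subunit of the calcium-activated BK channel, had a mean of 3.69 ± 0.437 FPKM, whereas Kcnmb1, its smooth muscle counterpart, had 0 reads. The BK pore gene Kcnma1 matched no row. Nor did Kcnj2, Kcnj3, Kcnj5, Kcnj11, Kcna5, Kcnd2 and Hcn4, which were not analysed here. The repolarizing channels of heart Kcnh2 and Kcnq1 had 37 and 34 reads, and Kcne3, Kcnj12 and Kcnk13 had 0.

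Of 12 connexin and pannexin genes 3 were detected. Gja5, the connexin 40 of atria, conduction fibres and arteries, was at 45.7, 46.2 and 44.2 FPKM, and Gja1, the connexin 43 of ventricle and many tissues, at 30.9, 28.5 and 29.8 FPKM. Gjc1, connexin 45, had a mean of 3.56 ± 0.104 FPKM. These 3 are connexins of heart, of which Gja5 and Gja1 are also made elsewhere, while Gjb5, Gjb6 and Panx1 had 0 reads. Another 8 listed genes, Gjd3 among them, matched no row and were not analysed here.

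Chloride and volume-regulated channels were the channel list with the largest detected share, 14 of 20 (70.0%). Clic1, an intracellular chloride channel protein, was at 202, 198 and 190 FPKM, and all of Lrrc8a to Lrrc8e, the subunits of the volume-regulated anion channel, lay between 1.75 and 4.96 FPKM on average. In the list of TRP, mechanosensitive, store-operated and purinergic channels 12 of 32 were detected (37.5%). Orai1 and Stim1, the pore and the sensor of store-operated calcium entry, were at 26.3 ± 0.962 and 11.8 ± 0.325 FPKM, and Piezo1, a stretch-gated channel, was at 10.2, 10.04 and 10.1 FPKM. Trpc7 had 0 reads. Of 17 ligand-gated channels of neurons 2 were detected, the glutamate receptor subunits Grik5 and Gria3, at means of 11.2 and 3.797 FPKM, and Gria1 and Grin2b had 0.

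**Figure D4:**
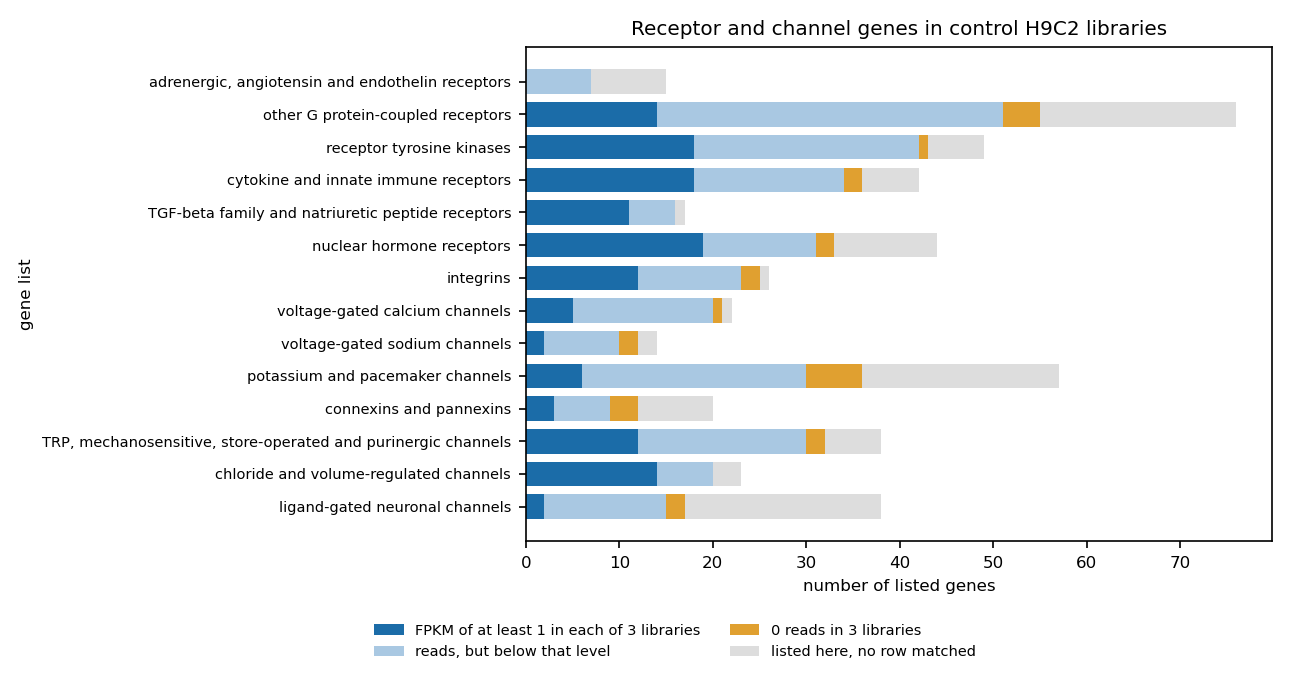
Number of listed genes (x axis) in 7 receptor and 7 channel lists (y axis), split into those detected in each of 3 control libraries, those with reads below that level, those at 0 reads and those that matched no row. No adrenergic, angiotensin or endothelin receptor with a row is detected, and 14 of 20 chloride channel genes with a row are.

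The 3 libraries were compared with each other by a chi-square test of counts, adjusted over all genes by the Benjamini-Hochberg method, to see which levels varied by more than counting error. Of 12376 genes with at least 10 reads in each library, 1178 differed (9.52%). The share rose with level, from 5.32% of genes between 1 and 10 FPKM to 81.2% of those with at least 1000 FPKM. At deeper counts the test can call smaller differences, and how much of the rise goes with this was not tested. The median coefficient of variation went the other way, from 5.14% to 1.88%. The mean over genes of the statistic per degree of freedom was 3.46, 3.52 and 3.57 for the 3 pairs of libraries. Pure counting error gives a value near 1. A few genes with deep counts weigh heavily in such a mean, such as Rn45s with 6829 over the 3 libraries, so it does not describe a typical gene. Each library was counted as a replicate.

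Ribosomal RNA and 2 mitochondrial genes were among the 10 genes with the largest chi-square statistic, which grows with depth as well as with the size of a difference. Rn45s, the precursor of cytosolic ribosomal RNA, had 12574, 25963 and 6514 reads, or 52.5, 96.1 and 22.5 FPKM. The 28S gene Rn28s and an 18S gene (LOC120102105) had the same order, at 9.06, 17.6 and 5.05 FPKM and at 13.4, 30.2 and 4.87 FPKM. ND6, the 1 mitochondrial mRNA read from the light strand, had 3587, 893 and 3343 reads, or 251, 55.2 and 193 FPKM, and ND5, its neighbour on the other strand, was at 875, 649.5 and 816 FPKM. Library 2 was thus the highest for these ribosomal RNAs and the lowest for ND5 and ND6. It was also the highest for Rpph1, the RNA of ribonuclease P, at 5.64, 10.6 and 1.63 FPKM, and for Rn7sl1, the RNA of the signal recognition particle, which had 2, 7 and 1 reads. In it, all rRNA genes together took 0.203% of reads, against 0.144% and 0.104% in libraries 1 and 3. ND5 and ND6 lie end to end on opposite strands, and the sources used here do not say whether reads were assigned by strand.

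Libraries 1 and 3 were the ends of another order, in which smooth muscle transcript fell and collagen transcript rose stepwise from library 1 to library 3. Of 15 smooth muscle genes tested 10 differed between libraries, against 9.52% of all genes tested. Of these 10, 9 were highest in library 1 and 8 lowest in library 3. The list summed to 8799, 8473 and 8283 FPKM. Of 26 fibroblast genes tested 12 differed, of which 10 were lowest in library 1 and 9 highest in library 3, and that list summed to 9295, 9652 and 9789 FPKM. Col1a1 was at 1937, 2089 and 2159 FPKM and Col1a2 at 1904, 2018 and 2087 FPKM. Over all genes that differed, 39.9% were highest and 40.0% lowest in library 1, and 26.9% were highest and 34.6% lowest in library 3. Many members of these lists are abundant genes, for which a difference was called more often. The share that differed was 12.7% at means of 10 to 100 FPKM, 38.0% at 100 to 1000 and 81.2% at 1000 or more.

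Differences in these lists were small, with a coefficient of variation of 3.06% for Acta2 and 5.50% for Col1a1. Actb and Ccn2 were also highest in library 1. Without library 1, 5 smooth muscle and 4 fibroblast genes differed between the remaining 2 libraries; without library 2 the counts were 10 and 12, and without library 3 they were 5 and 7. What went with these orders was not tested.

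**Figure D5:**
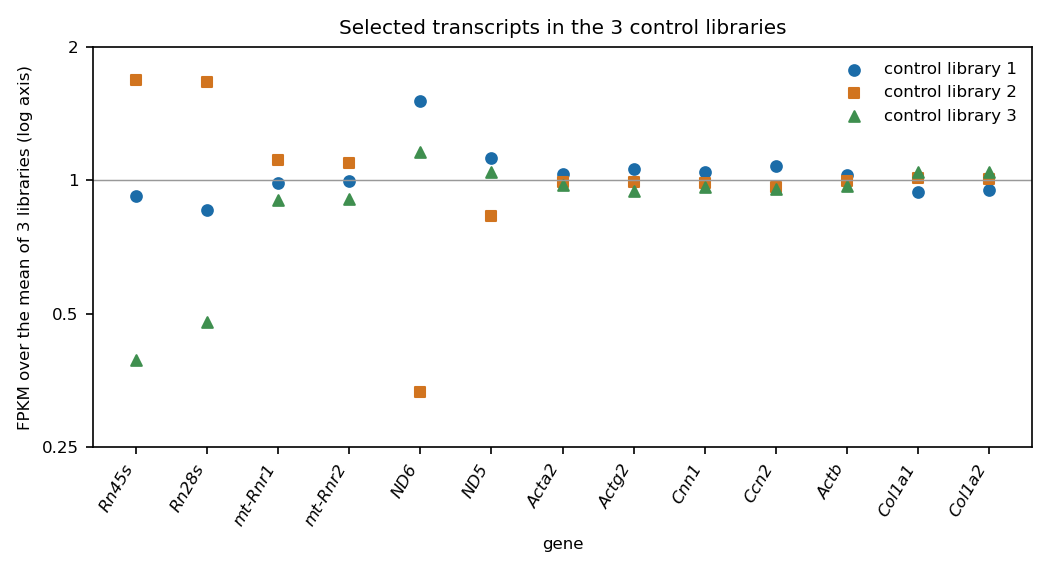
FPKM of selected genes in each of 3 control libraries over the mean of the 3 (y axis, log scale), by gene (x axis). Library 2 is highest for Rn45s and Rn28s and lowest for ND6 and ND5, and library 1 is highest for Acta2, Actg2, Cnn1, Ccn2 and Actb and lowest for Col1a1 and Col1a2.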

How the data were processed

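Per the labels' protocols, DNase-treated RNA of H9C2 cells was captured by its poly(A) tail and sequenced as read pairs from strand-marked libraries. Per the submitters' processing notes, HISAT2, DESeq2 and the build mRatBN7.2 were used. Versions, the counting program, its use of strand, the annotation and the gene lengths behind FPKM are stated in none of the sources used here, so overlapping, antisense and near-identical genes are uncertain. The authors deposited whole-number read counts for 20742 genes and FPKM values, rounded to 2 decimals, for 20395 of them. The 347 genes without an FPKM row had at most 6 reads in a control library and were taken as not detected. Levels came only from the 3 control columns, and the other 3 count columns served to see which genes are listed.

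Shares, ranks, means and SDs were computed in Python 3.11.15 with pandas 2.3.3 and scipy 1.17.1, and TMM factors and dispersion in edgeR 4.0.16 (R 4.3.3). The only test was a chi-square test of each gene's counts over the 3 libraries, scaled by TMM, for genes with at least 10 reads in each, called at an adjusted p under 0.05. It was tested on simulated data. No group contrast was made.

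The 32 lists and the 26 isoform families were chosen with earlier results of these data known. Of 790 distinct symbols on the lists, 162 matched no row and the rest matched 627 genes, 1 of them by an older symbol. The text names, for each list, genes among the 5 with the highest mean FPKM, members at 0 reads, the isoform families, the 25 genes with the highest mean FPKM, up to 10 leading genes of each noncoding type and the 10 most heterogeneous genes. Other genes, most of them list members with few reads, were chosen after their values were seen. Some listed genes are not reported here.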

Additional observations from a re-analysis of the deposited data

How the results depend on the processing

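The count of detected genes lay between 8702 and 12376 when the limit was an FPKM of 0.5 or 2, a TPM of 1 or 10 reads, and between 10051 and 10067 without 1 library. The share of reads in the 100 most abundant genes was 40.3% with FPKM in place of reads and 24.1% without mitochondrial genes, and 26.6% to 26.7% without 1 library. The protein-coding share was 99.1% with FPKM. The median SD of log2 FPKM over genes was 0.0794 with a pseudocount of 0.1 and 0.0373 with 1. With 2 libraries in place of 3, 343 to 775 genes differed, against 1178; 343 was the count without library 1. Other scalings and read limits gave 1017 to 1198. Heart isoforms led 6 families under each alternative tried for that count. By CPM, Mybpc1 led its family and Cpt1a its own, and 11 of 26 shares moved by less than their SD. Counts of detected list members stayed within 1.5 times for 29 of 32 lists at an FPKM of 0.5, 30 at 2 and 21 at 10 reads, and in 95 of 96 cases without 1 library; the exception was Adra1b, detected without library 2. The counts of list members that differ without 1 library, and the actin shares with Actg2, were chosen after seeing the data. No paired analysis was possible because only 1 group was used. Genes with few reads cannot be ordered among themselves at this depth.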

Other observations

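A further set of genes, all chosen after their values were seen, adds detail on growth control and on the matrix. Cdkn2a, the tumour suppressor locus that encodes p16 and ARF and whose transcripts a gene-level count cannot separate, was at 96.8, 97.7 and 95.2 FPKM in the 3 control libraries. The proliferation genes Mki67 and Top2a were at 22.2, 20.2 and 20.7 FPKM and at 19.7, 17.8 and 17.9 FPKM. Tert, the catalytic subunit of telomerase, had 22 reads in all. H19 and Igf2, imprinted neighbours, differed widely in level, with Igf2 at 1.17, 1.44 and 1.50 FPKM. Secreted factors of the matrix were abundant: Pcolce, which speeds procollagen cleavage, was at 1098, 1174 and 1179.9 FPKM, and the protease Htra1 at 1153, 1133 and 1143 FPKM. Col4a1, a basement membrane collagen, had a mean of 199 ± 3.51 FPKM (SD, n = 3).

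The small heat shock proteins Hspb1 and Cryab, both common in muscle, had means of 763 ± 14.3 and 359.5 ± 8.47 FPKM. Mcam, a surface antigen of pericytes and smooth muscle, was at 76.0, 75.7 and 76.8 FPKM, while the pericyte genes Cspg4 and Rgs5 had 5 reads and 0 reads. Srf, the factor through which smooth muscle genes are driven, had a mean of 20.5 ± 0.376 FPKM. In the complex that links the cytoskeleton to the matrix, Dag1 was at 40.9, 39.6 and 40.4 FPKM and Dmd, dystrophin, at 1.05, 1.04 and 1.10 FPKM. Of 38 genes described as olfactory receptors 1 was detected, Olr812, at 2.87, 2.41 and 2.60 FPKM. Rrad, a small GTPase that restrains L-type calcium channels, was at 109, 111 and 105 FPKM.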
